A study of Mus musculus with 75 samples.

Results

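The genes described here are 7 components of the mouse MHC class II antigen presentation pathway. They are the chain genes H2-Aa, H2-Ab1 and H2-Eb1, the invariant chain gene Cd74, the peptide exchange genes H2-DMa and H2-DMb1, and the transactivator gene Ciita. They were chosen by symbol, and 7 of 7 were found among the 21051 symbols counted in untreated mice and 2 h after injection, and among the 21076 symbols counted at 24 h. All 7 passed the filter on low counts in each experiment.

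MHC class II molecules are pairs of an alpha and a beta chain that carry peptides from the endosome to the cell surface, where CD4 T cells read them. The invariant chain, encoded by Cd74, holds new chain pairs and blocks their groove, and H2-DM exchanges its remnant for peptide. Ciita encodes the transactivator that binds no DNA itself and switches these genes on through a factor complex at their promoters. Macrophages, dendritic cells and B cells carry class II constitutively, and interferon-gamma induces it in many other cell types. Enteric glia, the glial cells of the plexuses of the gut wall, have been reported to carry class II in inflamed gut.

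The series holds 75 RNA-seq libraries of cells labelled EGC (enteric glial cells) from adult mice that all carried a transgenic eGFP reporter, in which a glial promoter drives the green fluorescent protein. How the cells were collected is not given in the sources used here. Every group described below held libraries from males and from females, though not always in equal numbers. Untreated reporter mice gave 22 libraries from 4 sites: 5 from the myenteric plexus (MP) and 5 from the submucosal plexus (SMP) of the colon, and 6 from each plexus of the small intestine. Reporter mice killed 2 h after injection gave 16 myenteric libraries, 4 for each combination of region and treatment.

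The 24 h experiment held 37 myenteric libraries from 22 mice. Mice labelled Gpr37WT with the reporter (wild type) gave small-intestinal libraries from 6 controls and 4 animals given LPS, and colon libraries from 4 controls and 5 given LPS. Mice labelled Gpr37-/- with the reporter (knockout) gave 4 control and 5 LPS libraries for the small intestine, 5 control and 4 LPS libraries for the colon. LPS (lipopolysaccharide of E. coli O111:B4, a bacterial endotoxin) was given once into the peritoneum at 2 mg/kg in PBS (phosphate-buffered saline), and controls received PBS alone.

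Library totals were 2547296 to 9002546 counts in untreated mice, 1990744 to 7883251 at 2 h and 2882539 to 33283346 at 24 h. The glial markers Sox10 and S100b were detected in every untreated library. Levels are in CPM (read counts relative to library size, with TMM scaling), and fold changes are on the log2 scale with their standard error (SE). Called means an adjusted p under 0.05, from edgeR's quasi-likelihood test, adjusted by Benjamini-Hochberg across the genes that passed the filter. Where the labels name no mouse, as in untreated mice and at 2 h, p-values measure only the spread between these samples.

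Of these loci 5 lie together in the MHC on chromosome 17 of GRCm38, the build named in the submitters' processing notes. In the GENCODE annotation H2-DMa spans chr17:34119541-34139101, H2-DMb1 chr17:34153072-34160230, H2-Ab1 chr17:34257689-34269419 and H2-Eb1 chr17:34305867-34316674, all on the plus strand, and H2-Aa spans chr17:34282744-34287823 on the minus strand. H2-DMb1 and H2-Eb1 have close relatives next to them, H2-DMb2 and H2-Eb2. How reads shared between such copies were counted is not given in the sources used here, so these 2 genes carry that uncertainty.

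The class II promoter has an X box and a Y box a short distance before the transcription start, and the complex that Ciita works through sits on them. The stretches below show how these elements look in 3 members whose RNA moved together in the libraries. They are the 120 bases before the RefSeq start site (GRCm38.p6), given 5′ to 3′ on the strand of the gene, with matches to a Y box core (GATTGG) or an X box core (AGNAAC) in capitals, either strand. H2-Eb1 is chr17:34305747-34305866 on the plus strand, H2-DMb1 chr17:34153071-34153190 on the plus strand and H2-Aa chr17:34287824-34287943 on the minus strand.
H2-Eb1: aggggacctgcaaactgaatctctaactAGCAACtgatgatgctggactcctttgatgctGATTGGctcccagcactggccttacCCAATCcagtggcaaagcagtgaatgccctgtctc
H2-DMb1: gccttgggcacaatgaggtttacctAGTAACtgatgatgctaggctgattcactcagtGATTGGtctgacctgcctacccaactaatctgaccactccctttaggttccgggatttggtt
H2-Aa: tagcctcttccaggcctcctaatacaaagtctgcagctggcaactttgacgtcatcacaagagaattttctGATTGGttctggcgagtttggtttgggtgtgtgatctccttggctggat

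The Y core began 60 bases before the start in H2-Eb1, 62 in H2-DMb1 and 49 in H2-Aa. An X core on the same strand began 92 bases before the start in H2-Eb1 and 95 in H2-DMb1, and no X core letters were found in the H2-Aa window. H2-Eb1 also held a Y core on the opposite strand, at 35 bases. In the GENCODE annotation H2-DMb1 starts at base 34153072, upstream of the RefSeq start. All of its stretch but the first base, with both cores, thus lies inside the gene in that annotation. The distances given for H2-DMb1 hold for the RefSeq start only. RefSeq promoter windows, from 250 bases before to 50 bases after the start, were used for 4 of the 7 genes in 5 entries. No window of Cd74, H2-Ab1 or Ciita was used, and for members chromosome 18, where Cd74 lies, was left out of the search. Of the 2 H2-DMa entries 1 held a Y core, 199 bases before its start. That entry and H2-DMb1 also held an X core on the opposite strand, 2 bases after the start. RefSeq windows of this length numbered 32851 over all genes. On either strand and anywhere in the window, 16.11% held a Y core, 48.05% an X core and 7.738% both. A tandem IRF site (GAAANN followed by GAAA), which 3.443% of windows held, was not found in the 5 entries. Nor was the other pattern searched, TTCNNNGAA, which 8.298% of windows held.

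Levels of the 7 genes can be ranked per kilobase of exon, since Smart-seq2 covers whole transcripts. The length used is the union of all annotated exons of a gene, which is 3448 bases for H2-DMa and 1681 for H2-DMb1. Outside the MHC, Cd74 lies at chr18:60803848-60812652 and Ciita at chr16:10480059-10528418, both on the plus strand. In submucosal libraries of the small intestine, where the mean of each member was highest, Cd74 stood at a mean of 7570 CPM per kb, H2-Ab1 at 3462, H2-Eb1 at 2360 and H2-Aa at 2105. The exchange genes were an order lower, at 169 CPM per kb for H2-DMb1 and 151 for H2-DMa, and Ciita stood at 15.5. Between the exchange genes the order turned on these lengths, since H2-DMa had 519 CPM and H2-DMb1 285 CPM before division by length. Over the 75 libraries the level of H2-Ab1 per kb was 1.33 to 4.62 times that of H2-Aa, with a median of 2.12. The ratio of H2-Eb1 to H2-Aa ran from 0.850 to 1.99, and that of Cd74 to H2-Aa from 1.38 to 5.15.

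The members moved closely together in untreated mice, Ciita least. Within groups, as deviations of log2 CPM from the group means over the 22 untreated libraries, the correlation of a member with the mean of the other 6 was 0.986 for H2-Eb1, 0.983 for H2-Aa and 0.973 for H2-Ab1. Cd74 stood at 0.946, H2-DMa at 0.974 and H2-DMb1 at 0.907. Ciita followed the others least, at 0.735 in untreated mice, 0.223 over the 16 libraries at 2 h and 0.677 over the 37 at 24 h. At 2 h H2-DMa also stood apart, at 0.499, where the remaining 5 members had 0.862 to 0.959. These values describe libraries that share depth and cell makeup and carry no test. The untreated ones include colon submucosal replicate 2, where every member lay far below the rest of its group.

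In untreated mice the class II genes were higher in the submucosal than in the myenteric plexus, at both regions and for every member. The first pair of comparisons asks how the libraries of the 2 plexuses differ. In the colon 7 of 7 members were called higher in the submucosal plexus, against 21.8% of 14090 genes called in either direction and 10.7% called higher. For the small intestine 7 of 7 were called higher, against 43.5% in either direction and 22.3% higher. The members' median log2 fold change was 2.81 for the colon and 3.12 for the small intestine, beside -0.01 and 0.06 over all genes.

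**Figure D1:**
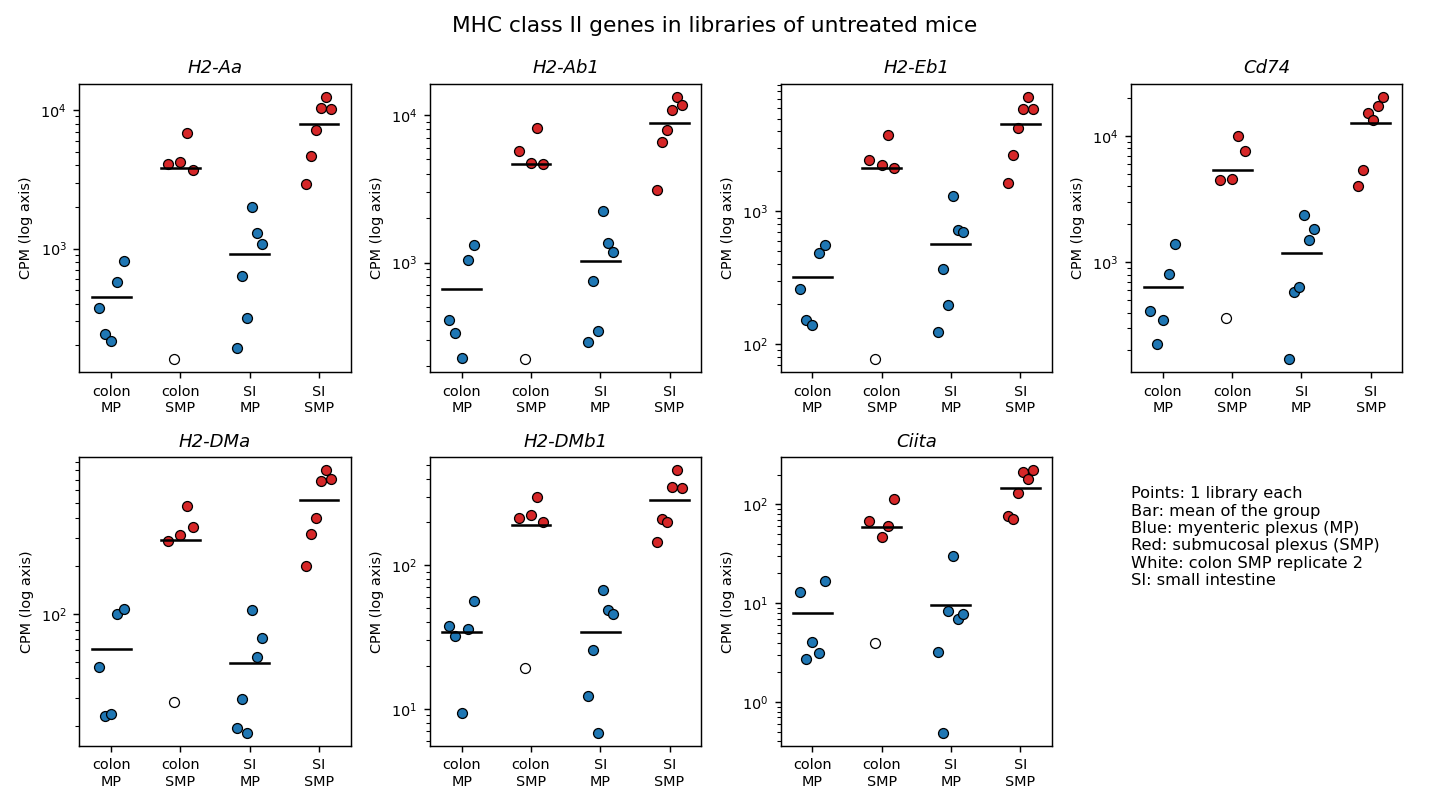
CPM of each class II gene (log axis) in every untreated library, by region and plexus, with the group mean as a bar. Red submucosal points lie above blue myenteric points in the small intestine for every gene, and 1 colon submucosal library, drawn in white, lies among or below the colon myenteric ones.

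Cd74, the invariant chain, spanned the widest range in CPM among the members. In colon myenteric libraries it stood at 227, 347, 414, 807 and 1409 CPM, and in colon submucosal libraries at 363, 4506, 4571, 7704 and 10014 CPM. Of the submucosal libraries 4 were above every myenteric one and 1, replicate 2, lay among them. The log2 fold change was 3.08 ± 0.75 (SE, adjusted p = 0.00598, edgeR's quasi-likelihood test). The lowest, median and highest small-intestinal values were 171, 1073 and 2370 CPM in the myenteric and 4059, 14388 and 20581 CPM in the submucosal plexus. Those 2 groups did not overlap, and the difference was 3.42 ± 0.69 (adjusted p = 0.000462).

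H2-Aa, the alpha chain of the I-A molecule, was also higher, with replicate 2 of the colon submucosal group below every colon myenteric library. Colon myenteric libraries held 216, 242, 369, 578 and 811 CPM and colon submucosal ones 159, 3675, 4069, 4244 and 6886 CPM. The fold was 8.59 in the colon (log2 3.10 ± 0.71, adjusted p = 0.00426) and 8.71 in the small intestine (log2 3.12 ± 0.65, adjusted p = 0.000616), by edgeR's quasi-likelihood test. Its partner H2-Ab1, the I-A beta chain, was 7.03-fold higher in the colon and 8.68-fold in the small intestine. H2-Eb1, the beta chain of I-E, was 6.65-fold and 8.03-fold higher.

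The exchange genes moved by similar amounts. H2-DMa stood at 23.3, 23.9, 47.0, 99.96 and 109 CPM in colon myenteric libraries and at 28.3, 287, 315, 354 and 477 CPM in colon submucosal ones, 4.82-fold higher by the fit (log2 2.27 ± 0.63, adjusted p = 0.0131). Small-intestinal H2-DMa ran from 18.2 to 107 CPM in the myenteric and from 203 to 798 CPM in the submucosal plexus, 10.4-fold higher. H2-DMb1 was 5.59-fold higher in the colon and 8.28-fold in the small intestine. As for Cd74, the low colon submucosal value was that of replicate 2.

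Ciita, the regulator, had the lowest counts of the 7. It stood at 2.72, 3.11, 4.05, 13.1 and 16.8 CPM in colon myenteric and at 3.99, 47.0, 60.8, 67.7 and 114 CPM in colon submucosal libraries. The lowest, median and highest values in the small intestine were 0.490, 7.37 and 30.2 CPM in the myenteric and 70.7, 156 and 220 CPM in the submucosal plexus. The fold was 7.35 in the colon (log2 2.88 ± 0.78, adjusted p = 0.0118) and 15.8 in the small intestine (log2 3.98 ± 0.74, adjusted p = 0.000227), by edgeR's quasi-likelihood test. Without small-intestinal myenteric replicate 4, at 30.2 CPM, the log2 value of the small intestine was 4.76.

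Non-overlap of the groups differed by region. In the small intestine 7 of 7 members did not overlap between the plexuses, beside 25.5% of genes. In the colon 0 of 7 were free of overlap, beside 12.6%, and replicate 2 of the submucosal plexus was the reason in each case: with the remaining 4 libraries 7 of 7 did not overlap, beside 21.8%. Its sum over 14 myeloid marker genes was 244 CPM, where the other 4 colon submucosal libraries held 7168 to 12058 CPM. Calls for the 7 members held in every alternative fit and with each library left out in turn. With a term for sex the members' medians were 2.57 for the colon and 3.30 for the small intestine.

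Between regions no member was called. In the myenteric plexus the colon minus small intestine differences ran from -1.05 to 0.28, with 0 of 7 called by edgeR, beside 3.19% of genes. DESeq2 called 0 of 7, beside 7%, and 0 had an unadjusted p under 0.05, beside 16.6%. In the submucosal plexus 7 of 7 estimates were below 0, with a median of -1.07, and again 0 were called by edgeR (5.18% of genes) or by DESeq2 (8.15%) and 0 had an unadjusted p under 0.05 (17.7%). The 95% intervals in that comparison ran from -2.79 to 0.58 over the members, so differences of several fold are not excluded by their spread. Nor was a difference of the plexus effect between regions called. By edgeR (1.19% of genes) and DESeq2 (4.1%) 0 of 7 interactions were called, and 0 had an unadjusted p under 0.05 (14.7%). Estimates were below 0 for 7 of 7 members, with intervals from -3.17 to 1.83. Their median was -0.34, and -0.85 with a term for sex or for the replicate block.

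Other genes of the pathway were taken from lists by role. The remaining class II genes in the table, H2-Eb2, H2-DMb2, H2-Oa and H2-Ob, the last 2 encoding the H2-DM inhibitor H2-O, were called higher in the submucosal plexus in 4 of 4 cases at both regions. H2-Ob averaged 1.25 CPM in colon myenteric and 31.4 CPM in colon submucosal libraries (log2 4.58 ± 0.94, adjusted p = 0.0019), and H2-DMb2 1.68 and 43.2 CPM (log2 4.66 ± 0.97, adjusted p = 0.00214). H2-Eb2 alone also differed between regions: it averaged 5.06 CPM in colon and 46.5 CPM in small-intestinal submucosal libraries (log2 -3.22 ± 0.78, adjusted p = 0.0169, edgeR). H2-O and H2-DMb2 are known mainly from B cells and from subsets of dendritic cells.

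The factors of the promoter complex were not called. Of Rfx5, Rfxap, Rfxank, Nfya, Nfyb, Nfyc and Creb1, 0 of 7 were called in either region, with medians of 0.10 and 0.26. Among 6 genes of endosomal processing 2 were called higher in the colon, Ctss (log2 3.42 ± 0.70), the protease that trims the invariant chain, and Ifi30 (log2 1.80 ± 0.44), a thiol reductase that unfolds antigens. Small-intestinal submucosal libraries had higher levels, by the same test, of 4 genes: Ctss, Ctsb, Lgmn and Ifi30. Ctsl, the protease that does the same trimming in thymic epithelium, was called lower (log2 -0.96 ± 0.23, adjusted p = 0.00185, edgeR).

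Costimulation genes, which give T cells their second signal or restrain them, were called higher in 4 of 7 cases in the colon, among them Cd86 (2.66 and 54.4 CPM, log2 4.29 ± 1.12, adjusted p = 0.00932) and Cd83 (17.0 and 160 CPM, log2 3.22 ± 0.89, adjusted p = 0.0133). Small-intestinal calls were 5 of 7, all higher: Cd40, Cd274, Pdcd1lg2, Icosl and Cd83. Of 10 genes of the interferon-gamma axis, the colon had 6 called higher and the small intestine 8. Irf8, a factor of myeloid and B cell development, rose by 2.31 ± 0.47 and 3.42 ± 0.45. Ifng itself averaged 0.420 CPM in colon myenteric and 12.2 CPM in colon submucosal libraries (adjusted p = 0.0386, edgeR).

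Markers of other cell types also differed between the plexuses, in numbers that varied by list and region. Myeloid markers were called higher in the submucosal plexus in 12 of 14 cases in the colon and 14 of 14 in the small intestine, dendritic cell markers in 8 of 10 and 7 of 10, and B cell and T cell markers in 6 of 6 each at both regions. Glial markers were called lower in 5 of 8 and 8 of 8 cases, and neuron markers in 5 of 6 and 6 of 6. Epithelial markers were called higher in 2 of 6 cases in the colon and 6 of 6 for small intestine, and their sum averaged 410 CPM in colon myenteric, 2860 in colon submucosal, 58.9 in small-intestinal myenteric and 2095 CPM in small-intestinal submucosal libraries. Smooth muscle markers were called lower in 6 of 6 cases at both regions and endothelial markers in 5 of 6 for small intestine and 0 of 6 for colon. The summed myeloid markers ran from 195 to 1017 CPM in colon myenteric libraries, from 281 to 4073 CPM in small-intestinal myenteric ones and from 4137 to 23843 CPM in small-intestinal submucosal ones. The summed glial markers ran from 6080 to 12992 CPM and from 1049 to 5080 CPM in the colon, myenteric first, and from 8977 to 13758 CPM and from 522 to 1900 CPM in the small intestine.

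Markers of lymphocytes and dendritic cells were low in the myenteric plexus. The summed dendritic cell markers ran from 6.65 to 30.6 CPM in colon and from 10.9 to 44.7 CPM in small-intestinal myenteric libraries, the B cell markers from 0.110 to 9.67 and from 0.463 to 10.4 CPM, and the T cell markers from 0 to 3.26 and from 0.151 to 3.39 CPM. Among single markers, Cd3e of T cells and Flt3 of dendritic cells were at 0 in 5 of 5 colon myenteric libraries and in 5 and 3 of the 6 small-intestinal ones, while Csf1r, the macrophage growth factor receptor, stood at 27.2 to 60.9 CPM and C1qa, a complement gene of tissue macrophages, at 10.3 to 153 CPM in the 5 from the colon. In these 5 libraries H2-Aa, H2-Ab1, H2-Eb1 and Cd74 summed to 929 to 4103 CPM. In libraries of bulk RNA, fewer cells of a type and less RNA per cell cannot be told apart.

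**Figure D2:**
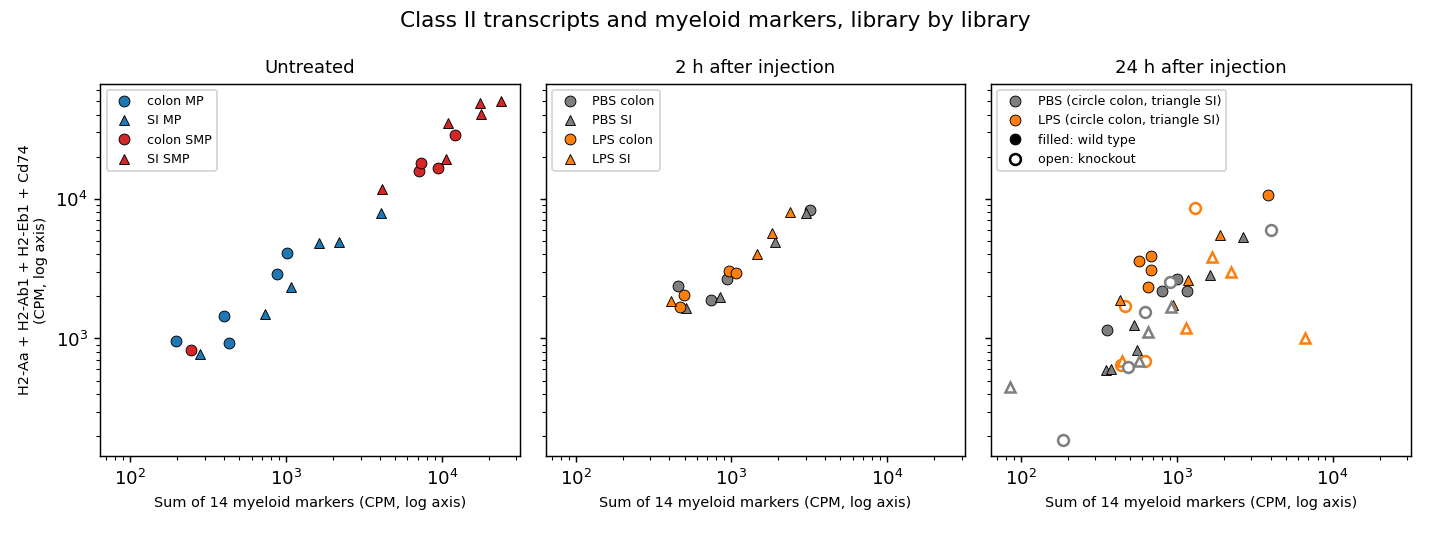
Sum of H2-Aa, H2-Ab1, H2-Eb1 and Cd74 against the sum of 14 myeloid markers, both in CPM on log axes, with 1 point per library and 1 panel per experiment. Points follow a rising band in untreated mice and at 2 h and scatter more at 24 h, where 1 knockout LPS library of the small intestine lies far to the right at 6692 CPM of myeloid markers.

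The class II sum followed the myeloid sum library by library. The ratio of the class II sum to the myeloid sum was 2.16 to 4.90 in colon myenteric, 1.77 to 3.37 in colon submucosal, 1.94 to 2.96 in small-intestinal myenteric and 1.83 to 3.16 in small-intestinal submucosal libraries. These 4 ranges overlapped, although the class II sum itself ran from 776 to 50519 CPM. In colon myenteric libraries that sum was 929 to 1453 CPM in males and 2913 to 4103 CPM in females. Small-intestinal myenteric values, males first, were 776 to 2330 and 4798 to 7918 CPM. Those of the submucosal plexus there were 11718 to 34637 and 40491 to 50519 CPM. In colon submucosal libraries the sexes overlapped. The part of sex was not tested beyond the fits with a sex term. Within groups of untreated mice the class II and myeloid sums, as deviations of log2 values, had a Pearson r of 0.976 over 22 libraries. The class II sum had 0.788 with the dendritic cell, 0.754 with the T cell and 0.677 with the B cell marker sum. It had -0.462 with the glial sum and -0.13 with the neuron sum. Rank correlations (Spearman) in the same order were 0.923, 0.708, 0.504, 0.416, -0.291 and -0.0841. These values include colon submucosal replicate 2, with a class II sum of 822 CPM against 15808 to 28798 CPM in the rest of its group. The part of immune, epithelial and muscle cells in the plexus difference was not tested beyond these values.

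By the rule for likeness, the 5 other genes closest to the members' mean within groups of untreated mice, among 11105 considered, were Lacc1, C1qc, Csf1r, Fcer1g and C1qa, with r from 0.956 to 0.954 over 22 libraries. Complement C1q, Csf1r and Fcer1g, an Fc receptor chain, are genes of macrophages. At 2 h the 5 closest among 10427 were C1qa, C1qc, Lyz2, Gpr107 and Junb (r 0.868 to 0.834, 16 libraries), and at 24 h, among 10545, Cd52, Laptm5, Fcer1g, C1qb and Cd53 (r 0.839 to 0.808, 37 libraries). The libraries compared share their depth and makeup, and no test was made. The untreated values include colon submucosal replicate 2, low in every member.

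At 2 h after LPS the structural class II genes showed no called change in the myenteric plexus, while Ciita had few or no counts after LPS. This comparison asks for the early response to endotoxin in these libraries. In the small intestine 0 of 7 members were called by edgeR, beside 1.1% of 13107 genes. Ciita was the 1 member with an unadjusted p under 0.05, beside 5.2% of genes, and the 1 called by DESeq2, beside 1.98%. In the colon 0 of 7 were called by edgeR, beside 0.778% of genes, 0 by DESeq2, beside 2.13%, and 0 had an unadjusted p under 0.05, beside 7.53%. Median log2 fold changes were 0.18 and -0.66, beside -0.02 and 0.00 over all genes. The colon median became -0.02 without PBS replicate 2, the library with the highest chain levels of its group, and the small-intestinal one -0.16 without LPS replicate 3 and 0.72 without PBS replicate 4.

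Cd74 in the small intestine stood at 428, 522, 1122 and 2094 CPM after PBS and at 519, 947, 1277 and 2477 CPM after LPS. The groups overlapped over nearly their whole range (log2 0.33 ± 0.60, 95% interval -0.94 to 1.59). In the colon it stood at 421, 423, 595 and 2154 CPM after PBS and at 370, 453, 704 and 887 CPM after LPS (log2 -0.57 ± 0.60, interval -1.84 to 0.70). The chain genes behaved alike, with estimates of 0.17 to 0.28 in the small intestine and of -0.73 to -0.60 in the colon. H2-DMb1 in the small intestine had the highest estimate of the 7, 0.71 ± 0.52, from 17.5, 22.8, 37.3 and 89.2 CPM after PBS and 23.5, 57.1, 96.2 and 97.8 CPM after LPS, with overlap. H2-DMa had -0.33 ± 0.49 there and -0.66 ± 0.50 in the colon.

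Ciita stood at 0, 2.52, 12.2 and 12.6 CPM in the 4 small-intestinal PBS libraries and at 0, 0, 0 and 0.273 CPM in the 4 LPS libraries. Only 1 PBS library, itself at 0, overlapped the LPS group. The counts behind these values were 109 after PBS and 2 after LPS, a ratio of 75.4 by CPM with a 95% counting interval of 20.4 to 631, which covers counting error only. The fitted log2 fold change was -6.15 ± 1.99 with an unadjusted p of 0.00668 and an adjusted p of 0.327 by edgeR, and -6.54 with an adjusted p of 0.0317 by DESeq2, so the call depended on the tool. Leaving out single libraries moved the edgeR estimate between -8.00 and -5.66.

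In the colon Ciita stood at 2.67, 3.27, 4.83 and 14.3 CPM after PBS and at 0, 0, 1.60 and 3.57 CPM after LPS, 85 against 24 counts in all (ratio 3.77, counting interval 2.37 to 6.201). The groups overlapped through 1 LPS library, and the fitted difference was -2.23 ± 1.66 (adjusted p = 0.958, edgeR's quasi-likelihood test). The difference of the LPS effect between regions was called for 0 of 7 members by edgeR (0% of genes) and by DESeq2 (0.336%), with 0 at an unadjusted p under 0.05 (3.45%), and for Ciita it was 3.93 ± 2.28.

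Among upstream genes Irf1 moved at 2 h. Irf1, the interferon-responsive factor that acts on the Ciita promoter, rose from a mean of 88.2 to 822 CPM in the small intestine (log2 3.22 ± 0.31, adjusted p = 3.27e-05) and from 94.1 to 1009 CPM in the colon (log2 3.42 ± 0.31, adjusted p = 2.19e-05, edgeR). It was the only gene of the interferon-gamma axis called, 1 of 9 tested at each region, and 0 of 6 costimulation genes, 0 of 6 processing genes and 0 of 7 promoter-complex factors were called. Socs1, a feedback inhibitor of this pathway, had log2 3.32 ± 1.13 and 3.59 ± 1.15 with adjusted p = 0.4001 and 0.3147. Cd83 in the small intestine had 3.21 ± 1.00 (adjusted p = 0.274). Myeloid markers were called in 0 of 14 cases at both regions, with medians of -0.23 and -0.74.

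**Figure D3:**
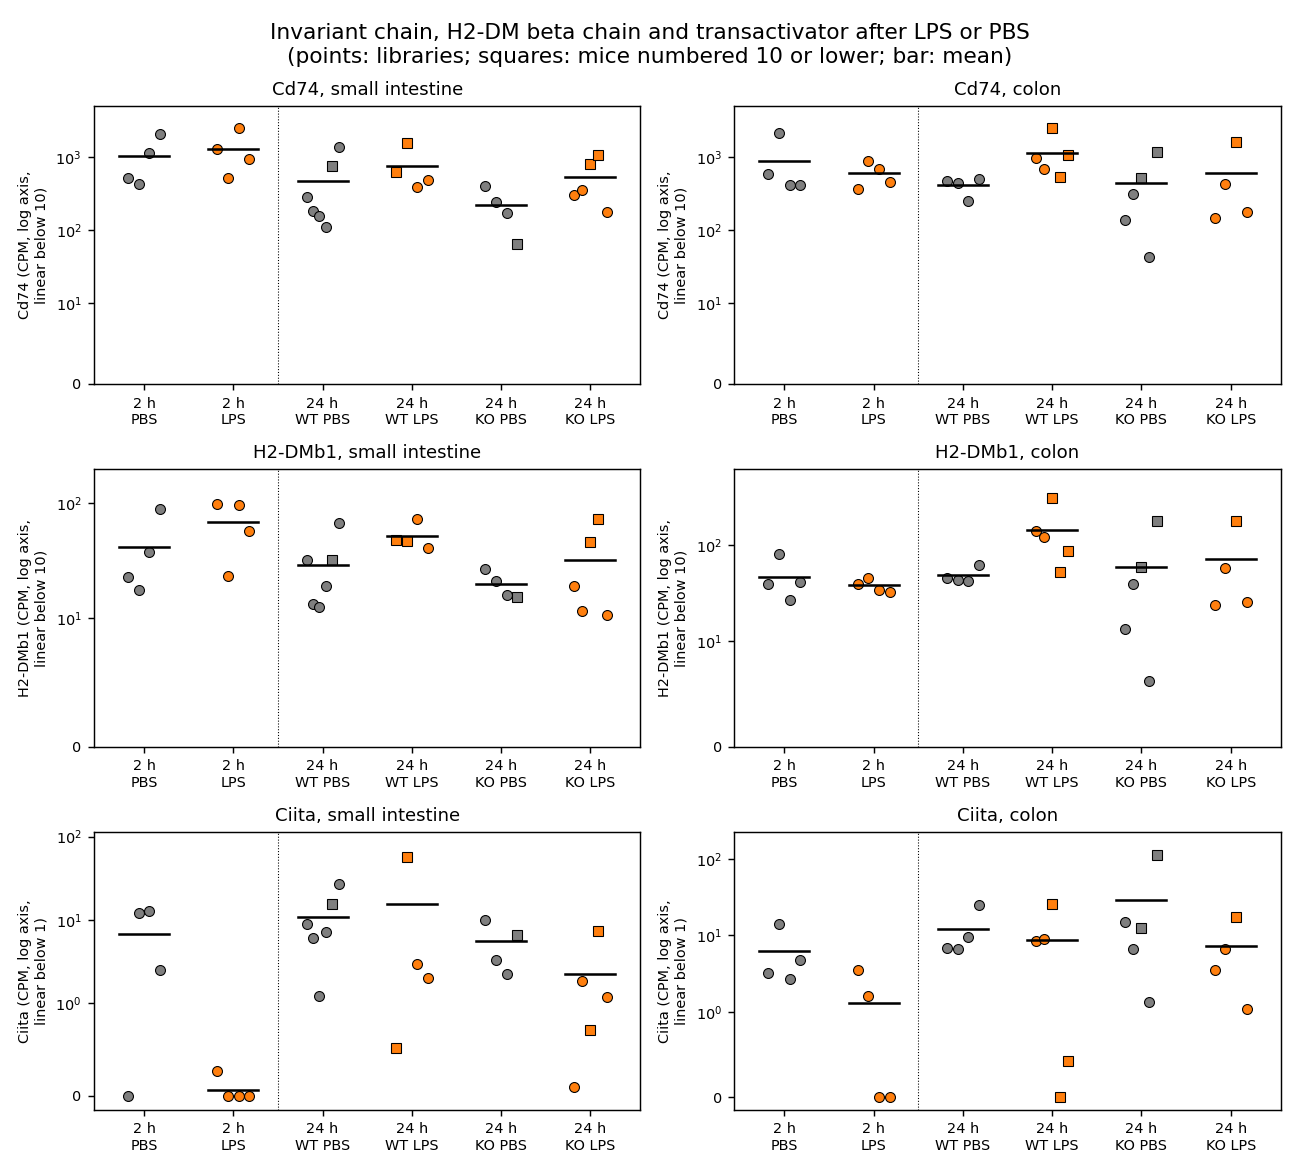
CPM of Cd74, H2-DMb1 and Ciita in every library at 2 h and 24 h (log axis, linear near 0), with the group mean as a bar and squares for mice numbered 10 or lower. Cd74 and H2-DMb1 overlap between LPS and PBS in nearly every pair of groups, and Ciita at 2 h in the small intestine lies at 0 in 3 of 4 LPS libraries.

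Gpr37 counts check the 24 h labels. The 18 knockout libraries held 18 Gpr37 counts in all and at most 9 in one library, and the 19 wild-type libraries held 1229. Of the latter 4 had at most 3 counts, all after LPS: both libraries of mouse 3 (0 in the small intestine, 2 in the colon) and the colon libraries of mice 5 and 8 (0 each), while the small-intestinal library of mouse 8 held 100. They make up 3 of the 5 colon and 1 of the 4 small-intestinal libraries in the LPS groups labelled wild type, so wild type below is the label alone. Fits without mouse 3 and without all 4, chosen after the counts were seen, are given beside results for these groups. The 1186 genes called with LPS in wild-type colon became 863 without mouse 3 and 373 without all 4, and the 1069 in wild-type small intestine became 781 and 1045. Mice numbered 10 or lower, in 12 of the 37 libraries, had 4.24 to 26.0% of counts from mitochondrial genes, where mice numbered 11 or higher had 1.66 to 10.4%. Such mice gave 3 of 5 wild-type LPS and 0 of 4 wild-type PBS libraries of the colon, and their part in the results was not tested beyond the fits given.

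At 24 h after LPS no class II gene was called in either genotype or region, although most estimates lay above 0. The question here is the late response to LPS and whether it needs Gpr37. In wild-type mice 0 of 7 members were called by edgeR in the small intestine, beside 7.17% of 14903 genes, and 0 of 7 in the colon, beside 7.96%. In knockouts 0 of 7 were called at either region, beside 0.718% each. DESeq2 called 0 in all 4 comparisons, where it called 12.6% and 15.1% of genes in wild-type small intestine and colon and 3.54% and 3.18% in those of knockouts. Of the estimates 1 had an unadjusted p under 0.05, H2-DMb1 in wild-type colon, beside 24.8% of genes there, and 0 did in the other 3 comparisons, beside 21.7%, 11.5% and 12.4%. Medians were 0.63 in wild-type small intestine, 1.06 in wild-type colon, 0.68 in knockout small intestine and 0.26 in knockout colon, beside -0.13, -0.03, -0.05 and -0.07 over all genes.

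Wild-type colon had the highest median. Cd74 stood there at 248, 441, 469 and 514 CPM after PBS and at 541, 690, 970, 1092 and 2527 CPM after LPS (log2 1.48 ± 0.81, 95% interval -0.17 to 3.12, adjusted p = 0.258, edgeR's quasi-likelihood test). The groups did not overlap, and the highest LPS value was that of mouse 3. H2-Ab1 stood at 429, 789, 875 and 1036 CPM after PBS and at 1148, 1159, 1169, 1653 and 4139 CPM after LPS (log2 1.24 ± 0.81, adjusted p = 0.356). Cd74 and H2-Ab1 were the 2 of 7 members without overlap, beside 13.5% of genes.

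The other chain genes overlapped between treatments. H2-Aa ran from 253 to 605 CPM after PBS and from 374 to 2317 CPM after LPS in wild-type colon, with an estimate of 1.06 ± 0.81, and H2-Eb1 had 0.93 ± 0.78. H2-DMb1 stood at 42.8, 43.2, 44.9 and 62.4 CPM after PBS and at 53.0, 86.5, 123, 142 and 314 CPM after LPS (log2 1.57 ± 0.72, unadjusted p = 0.036, adjusted p = 0.166, edgeR). Of these LPS libraries 4 lay above every PBS library. H2-DMa had 1.05 ± 0.66. Ciita had an estimate below 0, at 6.69, 6.91, 9.52 and 25.0 CPM after PBS and 0, 0.422, 8.37, 8.99 and 25.5 CPM after LPS (log2 -0.48 ± 1.21, overlapping). Without the PBS library of mouse 24 it was 0.16, and without the LPS library of mouse 3 it was -1.44.

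The wild-type colon estimate depended on few libraries. Its median over the members was 0.70 without both libraries of mouse 3, was 0.87 without the 4 libraries labelled wild type that lacked Gpr37 counts, and 0.39 with a term for mouse number at 10. In mice numbered 11 or higher the sum of H2-Aa, H2-Ab1, H2-Eb1 and Cd74 was 3068 and 3924 CPM in the 2 LPS libraries and 1142 to 2680 CPM in the 4 PBS libraries. Mouse 3 had 3831 CPM of myeloid markers in its colon library, where the other 4 LPS libraries had 574 to 684, and 577 CPM of dendritic cell markers against 21.4 to 74.5. Of those markers Ccr7 and Clec10a were called higher with LPS in wild-type colon, 2 of 8 tested, and neither was called without mouse 3 (adjusted p = 0.0779 and 0.0740, edgeR) or without all 4.

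In wild-type small intestine 7 of 7 estimates lay between 0.51 and 0.83, and all 7 intervals included 0. Without the library of mouse 8, at 56.4 CPM of Ciita, the Ciita estimate of 0.51 became -2.53, so its direction rested on that library. Cd74 had a lowest, median and highest value of 109, 234 and 1370 CPM after PBS and stood at 393, 488, 627 and 1531 CPM after LPS (log2 0.68 ± 0.74). The members' median was 0.14 without the library of mouse 8 and 1.31 without the PBS library of mouse 14. With the mouse number term it was 0.04, without both libraries of mouse 3 it was 0.72, and without the 4 that lacked Gpr37 counts 0.73.

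Other pathway genes changed with LPS at 24 h in wild-type mice. Cd274, which encodes the inhibitory ligand PD-L1, rose from a mean of 3.09 to 45.2 CPM in the small intestine (log2 3.88 ± 0.71, adjusted p = 0.000456) and from 3.71 to 30.8 CPM in the colon (log2 3.05 ± 0.78, adjusted p = 0.014, edgeR). Icosl, a ligand for the T cell costimulator ICOS, rose by 3.61 ± 0.81 and 3.63 ± 0.93. Irf8 and the protease gene Ctsb rose in the small intestine, by 1.75 ± 0.48 and 0.94 ± 0.22, and the protease gene Ctsd fell by 0.69 ± 0.18 in the colon (values of the fit, adjusted p = 0.0216, 0.00597 and 0.0185). In knockouts 0 of these genes were called at either region. Cd274 and Icosl were called at both regions, and Irf8 and Ctsb in the small intestine, also without mouse 3 and without all 4 libraries. In the colon Cd274 had 3.25 ± 0.81 without mouse 3 and 3.51 ± 0.91 without all 4. Ctsd in the colon had -0.66 ± 0.20 without mouse 3 and -0.52 ± 0.25 without all 4, the latter not called (adjusted p = 0.309, edgeR). Whether the genotypes differed in these changes is not read from these counts.

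Some neutrophil markers rose with LPS in the same libraries. They were called higher in 4 of 6 cases in wild-type small intestine, 1 of 6 in wild-type colon, 1 of 6 in knockout small intestine and 2 of 6 in knockout colon. Myeloid markers were called in 1 of 14 cases in each wild-type region: Cx3cr1, a microglia and macrophage receptor, was lower in the small intestine (28.9 to 0.0985 CPM, adjusted p = 0.00658) and Itgam higher in the colon (0.708 to 16.0 CPM, adjusted p = 0.04999, edgeR). Without mouse 3, and without all 4, neutrophil markers were called in 4 of 6 cases in wild-type small intestine and 0 of 6 in wild-type colon. Cx3cr1 was called in both fits, and Itgam in neither (adjusted p = 0.103 and 0.198, edgeR). Knockouts had 0 of 14 called at either region, with a myeloid median of 1.92 for small intestine and -0.47 for colon. Fibroblast markers summed to 13722 to 22043 CPM after PBS and to 687 to 8623 CPM after LPS in wild-type colon, without overlap. Of 6 such markers 3 were called lower there without mouse 3 and 2 without all 4. In wild-type small intestine 1 of 6 was called lower in each of these fits. The part of cell makeup in the LPS comparisons was not tested.

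In knockouts the interval of the LPS effect included 0 for 7 of 7 members at each region. Cd74 in the small intestine stood at 63.8, 173, 242 and 397 CPM after PBS and at 178, 304, 356, 800 and 1051 CPM after LPS (log2 1.296 ± 0.80, interval -0.34 to 2.93). In the colon it stood at 43.2, 137, 319, 528 and 1177 CPM after PBS and at 147, 178, 429 and 1655 CPM after LPS (log2 0.45 ± 0.78). The top libraries were those of mouse 7 after PBS and mouse 2 after LPS. Without mouse 2 the colon median over the members was -0.97 and without mouse 7 it was 1.05, so its direction rested on the library of mouse 2. The small-intestinal median ran from 0.30 without the LPS library of mouse 6 to 1.02 without the PBS library of mouse 12, and in mice numbered 11 or higher it was -0.56.

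Ciita alone had estimates below 0 in both knockout comparisons, -1.35 ± 1.25 for small intestine and -2.05 ± 1.29 for colon. The small-intestinal estimate ran from -2.51 without the LPS library of mouse 6 to -0.85 without the PBS library of mouse 12, and the colon one from -2.98 without mouse 2 to -0.29 without mouse 7. After PBS it stood at 2.27, 3.30, 6.61 and 10.0 CPM in knockout small intestine, and after LPS at 0.0917, 0.716, 1.20, 1.85 and 7.38 CPM. In knockout colon the PBS values were 1.37, 6.60, 12.502, 15.1 and 111 CPM and the LPS values 1.08, 3.54, 6.58 and 17.4 CPM. The groups overlapped in both regions, and neither difference was called (adjusted p = 0.783 and 0.546, edgeR's quasi-likelihood test).

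**Figure D4:**
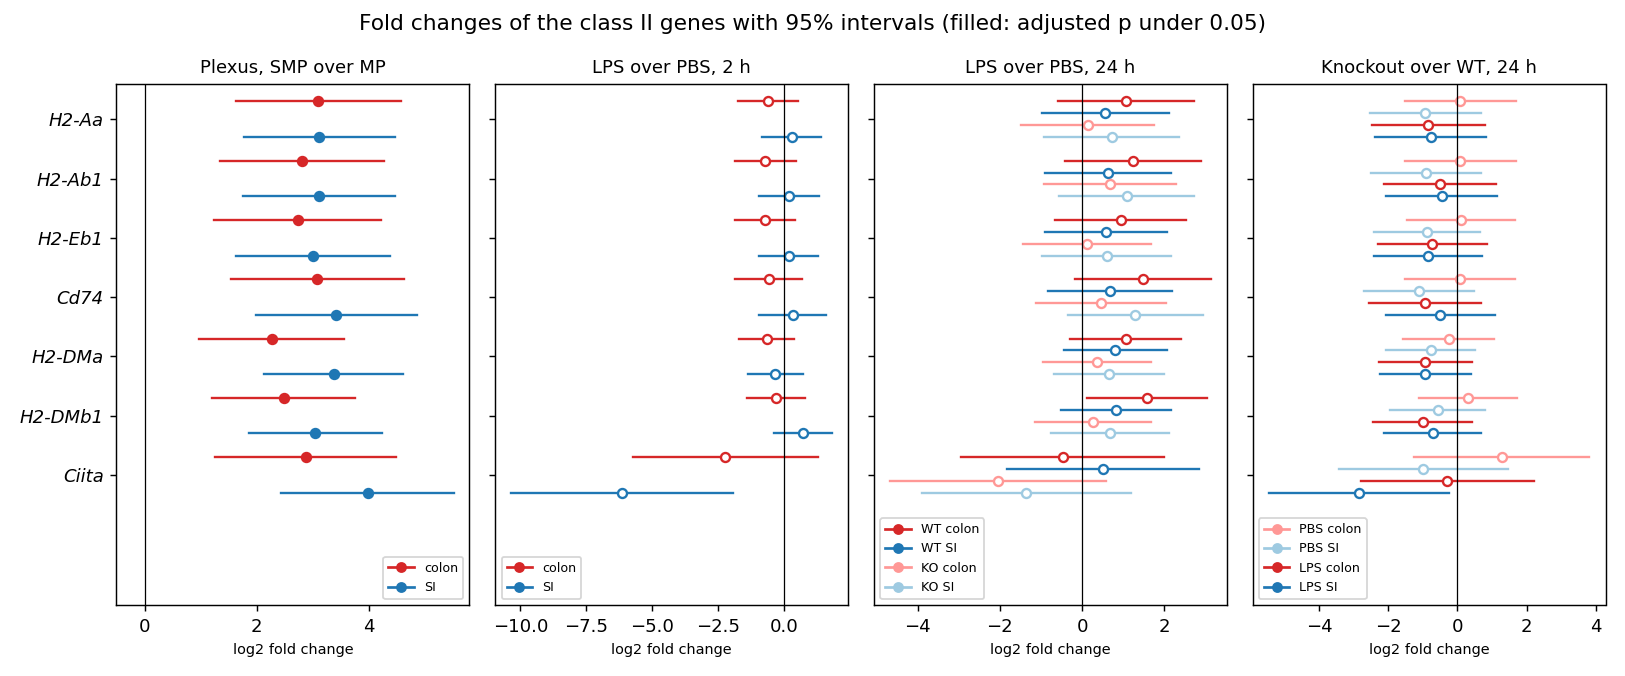
Log2 fold changes of the 7 genes with 95% intervals, in panels for plexus, LPS at 2 h, LPS at 24 h and genotype, with filled points where the adjusted p was under 0.05. Every interval of the plexus panel lies above 0, and among the other panels only Ciita at 2 h in the small intestine, H2-DMb1 in wild-type colon and Ciita between genotypes after LPS in the small intestine have intervals that leave out 0.

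Loss of Gpr37 gave no called change of a class II gene. Knockout and wild type were compared within treatment and region at 24 h, and 0 of 7 members were called by edgeR and 0 by DESeq2 in each of the 4 comparisons. The edgeR background was 0% of genes after PBS at both regions, 0.0134% after LPS in the small intestine and 0.429% after LPS in the colon. DESeq2 called 0.389%, 0.497%, 1.22% and 4.82% of genes in the same order. Medians of knockout minus wild type were -0.90 after PBS and -0.78 after LPS in the small intestine and 0.08 and -0.84 in the colon, beside 0.00, 0.05, 0.03 and 0.00 over all genes. The PBS median in the small intestine was -0.34 without the wild-type library of mouse 14. Over the members the 95% intervals reached from -5.45 to 3.81, so changes of several fold in either direction lie within them.

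After LPS 7 of 7 estimates lay below 0 at both regions. Without the small-intestinal library of mouse 8 those of H2-Ab1, Cd74 and Ciita there were 0.03, 0.10 and 0.20, and without the colon library of mouse 3 those of H2-Ab1 and Ciita in the colon were 0.04 and 0.67. H2-Aa stood in the colon at 374, 735, 758, 776 and 2317 CPM in wild type and at 132, 154, 283 and 1647 CPM in knockouts (log2 -0.84 ± 0.81, overlapping). Of the knockout libraries 3 lay below every wild-type one, and the library of mouse 2 lay above 4 of the 5. Without mouse 2 the median over the members was -2.21, and without the colon library of mouse 3, labelled wild type, it was -0.26. In mice numbered 11 or higher the 4-gene sum was 3068 and 3924 CPM in wild type and 642, 693 and 1718 CPM in knockouts, with a fitted median of -1.76 and 0 of 7 called.

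Removal of libraries labelled wild type changed the colon estimate after LPS. It was -0.27 without both libraries of mouse 3 and -0.45 without the 4 that lacked Gpr37 counts. After PBS in the colon the median was 0.08 with all libraries, 0.42 without knockout mouse 20 and -0.73 without knockout mouse 7, whose library held 4023 CPM of myeloid markers against 185 to 901 in the other 4 of its group. In mice numbered 11 or higher it was -1.36. No member was called in any of these fits.

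In the small intestine after LPS Ciita was the 1 member with an unadjusted p under 0.05, beside 7.63% of genes. The other 3 genotype comparisons had 0 such members, beside 1.72% (PBS, small intestine), 4.22% (PBS, colon) and 16.4% (LPS, colon). It stood at 0.513, 2.03, 2.96 and 56.4 CPM in wild type and at 0.0917, 0.716, 1.20, 1.85 and 7.38 CPM in knockouts (log2 -2.84 ± 1.28, unadjusted p = 0.0336, adjusted p = 0.590, edgeR's quasi-likelihood test). The wild-type value of 56.4 CPM, from mouse 8, was far above the other 3, and without that library the difference was 0.20, so its direction rested on it. H2-DMa stood at 41.4, 97.4, 106 and 114 CPM in wild type and at 14.9, 21.5, 39.1, 76.1 and 86.6 CPM in knockouts (log2 -0.92 ± 0.65). Of the wild-type libraries 3 lay above every knockout library. H2-DMb1 had -0.71 ± 0.69 and Cd74 -0.50 ± 0.78. The members' median there was -0.29 without the library of mouse 8, -1.26 in mice numbered 11 or higher, -0.78 without mouse 3 and -0.81 without the 4 libraries labelled wild type that lacked Gpr37 counts.

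In the small intestine of knockouts after LPS 1 library had a far lower class II than myeloid sum. The ratio of the class II sum to the myeloid sum was 1.81 to 4.34 in wild type, with or without mouse 3, and 0.152 to 2.27 in knockouts, overlapping. Its lowest value came from knockout mouse 11, where the other 4 knockout libraries had 1.05 to 2.27. That library held 1015 CPM of the 4 class II genes and 6692 CPM of myeloid markers, of which Lyz2, a lysozyme gene of macrophages and neutrophils, made 54.7%. Leaving Lyz2 out of the sum, the ratios were 2.36 to 5.19 and 0.335 to 2.70. C1qa in that library was 756 CPM, above the 86.4 to 438 CPM of the other 4 of its group. The median difference between genotypes was 1.03 for the 14 myeloid markers and -0.78 for the class II members, with 0 of 14 and 0 of 7 called.

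The LPS effect itself did not differ between genotypes beyond the spread. Interactions of genotype and treatment were called for 0 of 7 members in the small intestine and 0 of 7 in the colon by edgeR, beside 0% of genes each. DESeq2 called 0 of 7 in both, beside 0.396% and 2.31%, and 0 had an unadjusted p under 0.05, beside 3.88% and 13.5%. The colon interactions were all below 0, from -1.57 for Ciita to -0.58 for H2-Ab1, with intervals from -5.12 to 1.98, though H2-Ab1 had 0.26 and Ciita 0.17 without knockout mouse 7. The colon median was -0.03 without knockout mouse 7 and -2.31 without knockout mouse 2. It was -0.38 without both libraries of mouse 3 and -0.55 without the 4 that lacked Gpr37 counts. The small-intestinal median was 0.03, and 0.09 and 0.06 in these 2 fits. It was -0.53 without the PBS library of wild-type mouse 14, 0.64 without the LPS library of mouse 8 and -0.64 in mice numbered 11 or higher.

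Class II levels of the 2 regions were also set side by side within mice. Of 15 mice with a library of each region, 9 had deviations of the 4-gene sum from the group mean on the same side in both regions, and the Pearson r of these deviations was -0.03. The small-intestinal library of mouse 7 has no mouse id among its labels, and the number was read from the sample description. Mouse 7 held 452 CPM in the small intestine and 5970 CPM in the colon, and mouse 3 held 2623 and 10723 CPM. Both colon values were the highest of their groups. Over the 37 libraries at 24 h the class II sum had a within-group r of 0.772 with the myeloid sum, 0.736 with the neuron sum and 0.0847 with the glial sum. At 2 h these were 0.957, 0.0403 and 0.151 over 16 libraries. The dendritic, T and B cell sums had 0.582, 0.583 and 0.617 with the class II sum at 24 h and 0.304, 0.153 and 0.522 at 2 h. The fibroblast sum had -0.389 at 24 h and -0.0891 at 2 h.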

How the data were processed

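RNA-seq libraries made with Smart-seq2, per the labels' protocols, were analysed from the raw read counts per gene symbol deposited by the authors as 2 tables, in which whole numbers sum to different totals. The submitters' processing notes name Trim Galore 0.4.4, STAR 2.5.3, DESeq2 and GRCm38. The counter, annotation and use of strand are not given in the sources used here, so overlapping or antisense reads could not be told apart. Smart-seq2 has no molecular identifiers, and counting intervals cover counting error only. Of the 24 h table, 25 symbols read as calendar dates and could not be assigned.

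Each experiment was fitted alone: filterByExpr, TMM and glmQLFit of edgeR 4.0.16 in R 4.3.3 over all its groups, glmQLFTest two-sided, with Benjamini-Hochberg adjustment over 14090, 13107 and 14903 genes in 18 contrasts. Each SE was derived by dividing the fold change by the root of F. The 7 members were named throughout. Other pathway genes and cell markers came from written lists, given by counts with called genes valued, and likeness used the 5 non-member genes with average log2 CPM of at least 3 (prior count 2) and the highest r. The members and lists were chosen with earlier results of these data known. Alternatives were RLE factors, DESeq2 1.42.0, no filter, sex, replicate and mouse number terms, fits restricted to 2 groups, and leaving out single libraries. Removal of mouse 3 and of wild-type libraries with at most 3 Gpr37 counts was added after seeing the data. Among 143 replicate pairs 0 were identical. The script was tested on simulated counts. Plots used matplotlib 3.10.9. Some items are not reported here.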

Additional observations from a re-analysis of the deposited data

Results flagged for a closer look

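In groups of 4 to 10 libraries, the highest or lowest value was set against its nearest neighbour by Dixon's ratio. Chance passes it in about 1 of 20 groups of normally distributed values. The ratio was taken on CPM without a log, so that rate need not hold here. Of 112 combinations of gene and group, 20 stood out, each through its highest library. They fall on few libraries, and the 7 genes of a library are not independent. For Ciita in LPS small-intestinal libraries at 2 h the ratio was 1 by construction, since all but the highest were at 0.

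Several came from the colon libraries of 3 mice at 24 h. In mouse 3 after LPS, labelled wild type but with 2 Gpr37 counts in this library, these were H2-Aa at 2317 CPM, H2-Ab1 at 4139, H2-Eb1 at 1741 and Cd74 at 2527 CPM. In knockout mouse 2 after LPS they were H2-Aa at 1647, H2-Ab1 at 3997, H2-Eb1 at 1285 and H2-DMa at 196 CPM, in a library with 1318 CPM of myeloid markers against 441 to 621 in the other 3 of its group. In knockout mouse 7 after PBS it was Ciita, at 111 CPM against 15.1 for the next library. The same held at 2 h for PBS colon replicate 2, with H2-Aa at 2174 and Cd74 at 2154 CPM and a myeloid sum of 3208 CPM against 456 to 937 CPM. The part of myeloid cells in these values was not tested.

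Ciita stood out in 5 further groups: at 30.2 CPM in untreated small-intestinal myenteric replicate 4, at 0.273 CPM in LPS small-intestinal replicate 1 at 2 h, where the other 3 were at 0, at 56.4 CPM in wild-type mouse 8 after LPS in the small intestine, at 7.38 CPM in knockout mouse 6 after LPS in the small intestine and at 25.0 CPM in wild-type mouse 24 after PBS in the colon. Wild-type PBS libraries gave the other 4: H2-DMb1 at 62.4 CPM in the colon of mouse 24, H2-DMa at 73.4 CPM in the colon of mouse 14, and H2-DMa at 120 CPM and H2-DMb1 at 67.1 CPM in the small intestine of mouse 14, whose myeloid sum was 2649 CPM against 352 to 1627 in the other 5.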

How the results depend on the processing

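Counts of called members were compared over 337 alternative fits, and 336 gave the main count. The exception was DESeq2 at 2 h in the small intestine, which called 1 member, Ciita at -6.54, where edgeR called 0. Of 2358 fold changes of single members, 2357 kept their direction where called and their side of the threshold, and the other was the same Ciita value. Leaving out each library gave 7 to 7 called members in both plexus comparisons and 0 to 0 in the rest. The replicate block gave 7 and 7 in the plexus comparisons and 0 between regions and at 2 h. Labels of same-numbered libraries share a number and name no mouse, so whether they share a mouse is not known. The mean correlation of their deviations was 0.0213 to 0.184 over the 6 comparisons. In each comparison it was above that of the other pairs, which was -0.0317 to -0.00439. In none was every same-numbered pair above 0.1. At 24 h no paired analysis was possible because the groups compared share no mouse.

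Over all genes DESeq2 called over 1.5 times as many as edgeR in most comparisons, including those between regions in the myenteric plexus (7% against 3.19%) and the submucosal plexus (8.15% against 5.18%), at 2 h (1.98% against 1.1% and 2.13% against 0.778%), at 24 h with LPS (12.6% against 7.17%, 15.1% against 7.96%, 3.54% and 3.18% against 0.718%) and between genotypes (4.82% against 0.429% after LPS in the colon). With 4 to 6 libraries a group and SEs of 0.73 to 0.81 for the chain genes in the LPS and genotype comparisons at 24 h and wider ones for Ciita, the 95% intervals of the members spanned changes of several fold.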
